A study of Saccharomyces cerevisiae with 2 samples.

Results

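SUC2, HO and CHA1 are 3 budding yeast genes that are described as silent or weakly used until a signal turns them on, and the nucleosomes on their promoters and coding regions were read from both libraries of the series. They were chosen by position: SUC2 on chromosome 9 from 37385 to 38983 on the plus strand, HO on chromosome 4 from 46271 to 48031 on the minus strand and CHA1 on chromosome 3 from 15798 to 16880 on the minus strand, each with 2 kb upstream and 500 bp downstream. The 3 windows covered 11943 of 12044027 nuclear bases, and the genes were 3 of 6477 in the yeast gene table at hand. The submitters' processing notes name the build sacCer2, and the edges of the 3 genes equal those in a gene table of the R64 assembly, so edges were read with a tolerance of 20 bp. Transcripts were not measured in this series, and whether the genes were silent in these cells was not analysed here.

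All reads came from 1 condition, a yeast culture grown in the rich medium YPD, which holds glucose, to an optical density of 1.5. The cells were fixed with 1% formaldehyde for 30 min, their DNA was cut for 20 min with 3.5 units of micrococcal nuclease (MNase), and DNA of the size of 1 nucleosome was cut from a gel and read from 1 end for 36 cycles. The labels name no strain, genotype or added inducer, while the study's own list of data sets gives the strain as BY. They do not say whether the 2 libraries, called replicate 1 and replicate 2, came from separate cultures. An SD over both libraries is therefore a spread that may be technical, and no test between conditions was possible.

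A nucleosome is a stretch of DNA wrapped around histones. MNase cuts the free linker DNA faster than wrapped DNA, so read ends pile up at the borders of nucleosomes and few reads come from stretches without them. SUC2 encodes invertase, which splits sucrose outside the cell. It is known to be held off in glucose by the repressor Mig1 with the corepressor Tup1-Ssn6, and its promoter is a classic case of nucleosome remodelling by SWI/SNF. HO encodes the endonuclease that starts mating-type switching. Its unusually long promoter is known to need the activator Swi5, SWI/SNF and the cell-cycle factor SBF in turn. CHA1 encodes the catabolic deaminase for serine and threonine, and it is known to be induced by these amino acids through the activator Cha4. Whether the medium held enough of them to induce CHA1 was not analysed here.

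Replicate 1 held 21957427 nuclear reads and replicate 2 held 19261599, and the 3 windows held 20191 and 17654 of them. The distance between the pile-ups of plus-strand and minus-strand read ends was 93 bp in replicate 1 and 84 bp in replicate 2 (88.5 ± 6.36 bp, SD, n = 2), both shorter than the 147 bp of a nucleosome core. In the SUC2 window it was 93 and 61 bp, in the HO window 69 bp in both, and in the CHA1 window 83 bp in both, where 61 bp is next to the shortest distance searched, 60 bp. Each read end was moved by 47 or 42 bp, to the midpoint between the strands of its own library, and a moved end is called a read centre. Nucleosome positions were the summits of the smoothed density of read centres, and their heights are multiples of the nuclear mean density. Occupancy is the number of read centres within 147 bp divided by its nuclear median, which was 220 reads in replicate 1 and 186 in replicate 2. A depleted stretch is a run of at least 80 bp with occupancy under 0.4. Distances are counted from the first base of the start codon, negative upstream and positive into the gene.

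The 3 windows held 54 positions in the mean of both libraries, 18 at SUC2, 21 at HO and 15 at CHA1. The smoothed density of the libraries correlated with r = 0.933 over the SUC2 window, 0.904 over the HO window and 0.916 over the CHA1 window, against 0.963 over all nuclear bases and a median of 0.928 over nuclear windows of 4000 bp. Neighbouring bases share reads, so these r are descriptions. The plot of density by distance shows the summits and the flat stretches of each gene in both libraries.

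**Figure D1:**
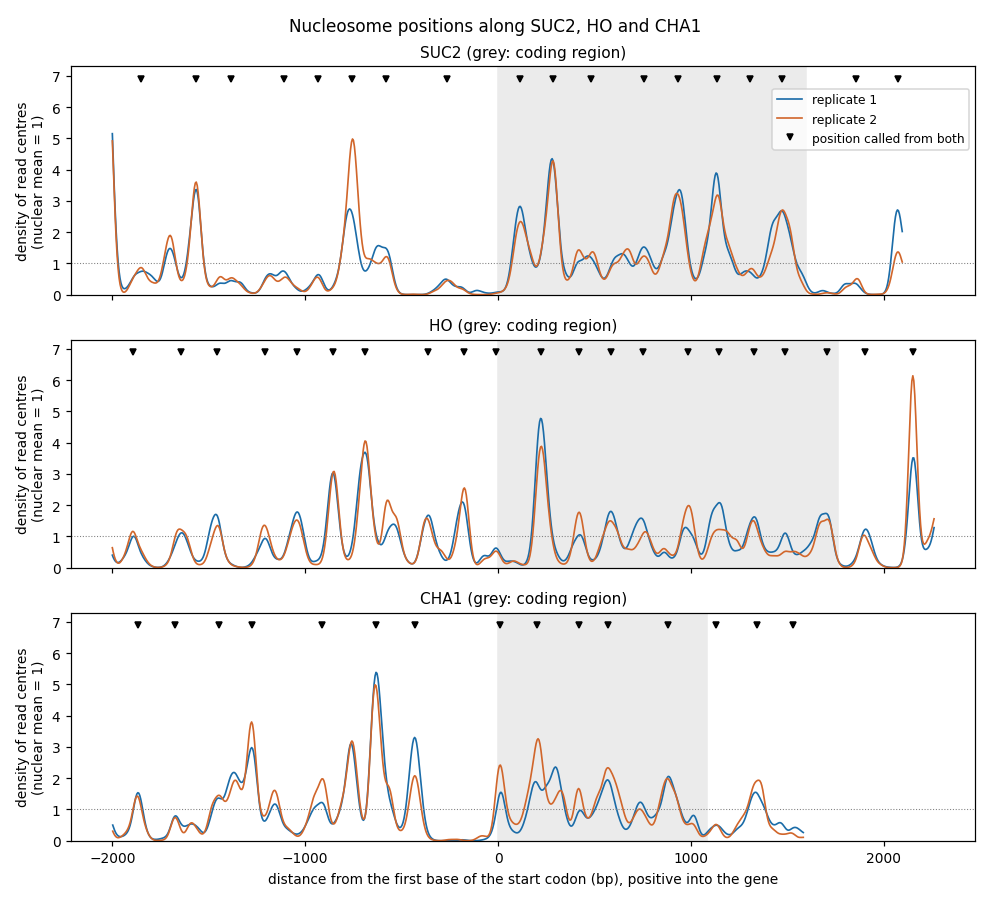
Smoothed density of read centres (vertical axis, multiples of the nuclear mean, dotted line at 1) by distance from the start codon (horizontal axis, bp) for SUC2, HO and CHA1, with 1 line for each library, grey coding regions and triangles at the 18, 21 and 15 positions called from the mean of both. The lines of both libraries rise and fall together over most of each window, and they lie near 0 before the start codons of SUC2 and CHA1 but not before that of HO.

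The SUC2 promoter held a wide stretch with few read centres next to the start codon. Whether nucleosomes were absent there was not tested. A distal and a proximal depleted stretch lay from -504 to -259 (246 bp) and from -235 to 18 (254 bp) in the mean of both libraries. A low summit stood at -266, just inside the end of the distal stretch, with a height of 0.467, which 4.42% of nuclear positions fell below. In replicate 1 the stretches ran from -503 to -266 and from -229 to 14, and in replicate 2 from -505 to -256 and from -254 to 19. Their edges thus differed between the libraries by at most 25 bp.

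Counts of read centres give the depth behind these stretches. The distal stretch held 65 read centres in replicate 1 and 38 in replicate 2, against 448 and 393 that the nuclear mean gives for its width. The proximal stretch held 59 and 29, against 463 and 406. Over the 100 bp from -500 to -401, 0 read centres lay in replicate 1 and 1 in replicate 2, and mean occupancy was 0.0519 and 0.0462. Over the 100 bp just before the start codon it was 0.0981 in replicate 1 and 0.0355 in replicate 2. Of all nuclear depleted stretches, 73.4% were narrower than the distal one and 75.0% narrower than the proximal one, so each was wide but not exceptional in width.

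The low summit was seen in both libraries. It was called at -271 in replicate 1, with 85 read centres within 73 bp, and at -258 in replicate 2, with 68. Its occupancy was 0.386 and 0.366, close to the limit of 0.4 that divides the stretches. With a limit of 0.6, or with read ends moved by 73 bp, the pair became 1 stretch, of 546 bp and of 536 bp. The summit was also lost with a minimum height of 0.5. The distances from it to its neighbours were 317 bp towards -583 and 380 bp towards 114, longer than 81.7% and 92.0% of nuclear distances between adjacent positions.

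Farther upstream, SUC2 had 7 more positions, and those at -1566 and -758 stood out from the others. The position at -1566 was called at the same base in both libraries, with 453 read centres in replicate 1 and 395 in replicate 2 and a height of 3.49. The position at -758 was higher in replicate 2, with 645 read centres and an occupancy of 3.47, than in replicate 1, with 467 and 2.12. Its summit lay at -770 in replicate 1 and at -754 in replicate 2. The position at -583, which borders the distal depleted stretch, was called at -620 in replicate 1 and at -579 in replicate 2, and this offset of 41 bp was the widest among the 49 positions with a call near them in each library. The 4 positions at -1850, -1383, -1110 and -935 were low, with heights from 0.493 to 0.804. A further depleted stretch of 120 bp lay between them, from -1346 to -1227, with 38 read centres in replicate 1 and 24 in replicate 2. A summit at -1701 with a height of 1.69 lay 135 bp from the position at -1566, within the exclusion zone of 147 bp, and was not called. At the outer edge of the window, at -2000, density was 5.15 in replicate 1 and 4.92 in replicate 2. It fell inwards from there, and no position was called at this edge. Occupancy from -2000 to -1901 was 2.32 in replicate 1 and 2.14 in replicate 2, and these bases count towards the upstream mean.

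In all, 601 of the 2000 upstream bases of SUC2 (30.1%) lay in depleted stretches, 582 in replicate 1 and 707 in replicate 2. Over the nuclear genome, 17.9% of bases did so in the mean of both libraries, 17.0% in replicate 1 and 19.2% in replicate 2. Mean occupancy of the upstream part was 0.893 ± 0.0579 (SD, n = 2), and 19.8% of nuclear windows of this length were lower. The number of depleted bases depended on the settings: it was 338 with 1 read kept per position and strand, 351 with the limit at 0.25 and 1050 with the limit at 0.6. The gene table names YIL163C, an uncharacterised reading frame, as the next gene upstream, and part of it falls within these 2 kb.

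The SUC2 coding region was densely occupied. Mean occupancy was 1.80 in replicate 1 and 1.78 in replicate 2 (1.79 ± 0.0104, SD, n = 2), and 90.0% of nuclear windows of the same length were lower. Upstream occupancy was 0.498 of that in the coding region, the lowest such ratio of the 3 genes. Occupancy over the first 100 coding bases was 1.19 in replicate 1 and 1.01 in replicate 2, and it reached 2.87 in both libraries from 200 to 299.

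Both libraries placed 8 positions in the coding region of SUC2. The first lay at 114, called at 113 and 117, and the second and highest at 282, called at 279 and 284, with 668 read centres in replicate 1 and 555 in replicate 2. The positions at 934, 1133 and 1472 were also high, with heights of 3.26, 3.53 and 2.69, while that at 1305 was low, with 0.770. The position at 756 was found in replicate 1 at 755 but had no call of replicate 2 within 73 bp, where a summit was called at 670 instead. Adjacent positions lay 193.7 ± 43.8 bp apart in replicate 1 and 193.9 ± 33.1 bp in replicate 2 (mean ± SD over 7 distances), and the median distance was 178 bp in the mean of both. The array was not strictly periodic. The best autocorrelation at lags from 120 to 220 bp was 0.182 in replicate 1, at 181 bp, and 0.133 in replicate 2, at 185 bp, near the nuclear medians of 0.198 and 0.174.

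Beyond the stop codon, SUC2 bordered on the widest depleted stretch of the 3 windows under these settings. It ran from 1601 to 1991, 391 bp, and began 3 bases after the last coding base, which is within the 20 bp tolerance of the edges. In replicate 1 it ran from 1616 to 1986 and in replicate 2 from 1598 to 2000. It held 93 read centres in replicate 1 and 73 in replicate 2, against 713 and 625 at the nuclear mean, and 89.8% of nuclear depleted stretches were narrower. A low summit of height 0.426 lay within it at 1856. With a limit of 0.25, or with 1 read kept per position and strand, this summit split the stretch into 2. The next position, at 2072, had 367 read centres in replicate 1 and 174 in replicate 2, a log2 ratio of occupancy of -0.83 (replicate 2 over replicate 1) that lies outside the middle 90% of nuclear positions. The gene table names SMU2 as the next gene, on the plus strand and reaching into the window with its start on this side.

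The HO promoter carried positions over nearly its whole length. There were 10 in the 2 kb upstream, at -1892, -1644, -1459, -1210, -1043, -854, -689, -366, -179 and -11. Each was called in both libraries, and the offset between the libraries was at most 12 bp. The highest were at -689, with 616 read centres in replicate 1 and 496 in replicate 2, and at -854, with 405 and 332. The positions at -366 and -179 had 264 and 302 read centres in replicate 1 and 219 and 273 in replicate 2. The last of them, at -11, was low and broad, with 112 read centres in replicate 1 and 77 in replicate 2 and a height of 0.579, which 7.28% of nuclear positions fell below.

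Only narrow stretches of the HO promoter were depleted. They lay from -1819 to -1723 (97 bp) and from -1378 to -1283 (96 bp), and just 13.1% and 12.4% of nuclear depleted stretches were narrower. Each held few read centres, 4 in each library for the distal one, and 5 in replicate 1 and 3 in replicate 2 for the other. A width of this size is close to the minimum of 80 bp. In all 193 of 2000 upstream bases (9.65%) were depleted, 197 in replicate 1 and 170 in replicate 2, against 17.9% of nuclear bases. With 1 read kept per position and strand 98 bases were left, with a limit of 0.25 there were 0, and with a limit of 0.6 there were 351. Mean occupancy of the HO upstream part was 1.02 in replicate 1 and 1.06 in replicate 2 (1.04 ± 0.0297, SD, n = 2), and 34.0% of nuclear windows were lower. The next gene upstream, GCS1, does not reach into the 2 kb.

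Between -1283 and the start codon no stretch of HO fell under the limit in the mean of both libraries. The lowest occupancy near the start codon lay partly inside the gene. Over the 100 bp before it, occupancy was 0.472 in replicate 1 and 0.410 in replicate 2, and over the first 100 coding bases it was 0.339 and 0.302. In the mean of both libraries a depleted stretch of 93 bp ran from 36 to 128. In replicate 2 it ran from -1 to 130, and in replicate 1 no stretch of 80 bp passed the limit. Its call thus rested on replicate 2, although the values of the libraries differed little: 29 read centres in replicate 1 and 25 in replicate 2.

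Among the upstream and coding parts of the 3 genes, the upstream part of HO had the highest autocorrelation at lags from 120 to 220 bp. Its density correlated with itself at a lag of 171 bp with r = 0.526 in replicate 1, and with r = 0.495 at 172 bp in replicate 2, higher than in 95.3% and 94.1% of nuclear windows of this length. A lower maximum, with r = 0.249 at 348 bp in replicate 1 and r = 0.208 at 353 bp in replicate 2, came next. The distances from -1043 to -854, from -854 to -689, from -366 to -179 and from -179 to -11 were 189, 165, 187 and 168 bp. Others were longer, with 248 bp from -1892 to -1644, 249 bp from -1459 to -1210 and 323 bp from -689 to -366. The SD of the distances was 53.6 bp in the mean of both libraries, larger than the 26.7 bp of the HO coding region, so the positions called were not evenly spaced throughout. Replicate 1 had a further call at -543, between -689 and -366, and a summit at -568 with a height of 1.23 in replicate 1 and 2.14 in replicate 2 lay 121 bp from -689 and was removed by the exclusion zone. The distance of 323 bp therefore does not mark an empty stretch. Occupancy from -600 to -501 was 1.20 in replicate 1 and 1.73 in replicate 2. These parts were ranked after their values were seen.

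**Figure D2:**
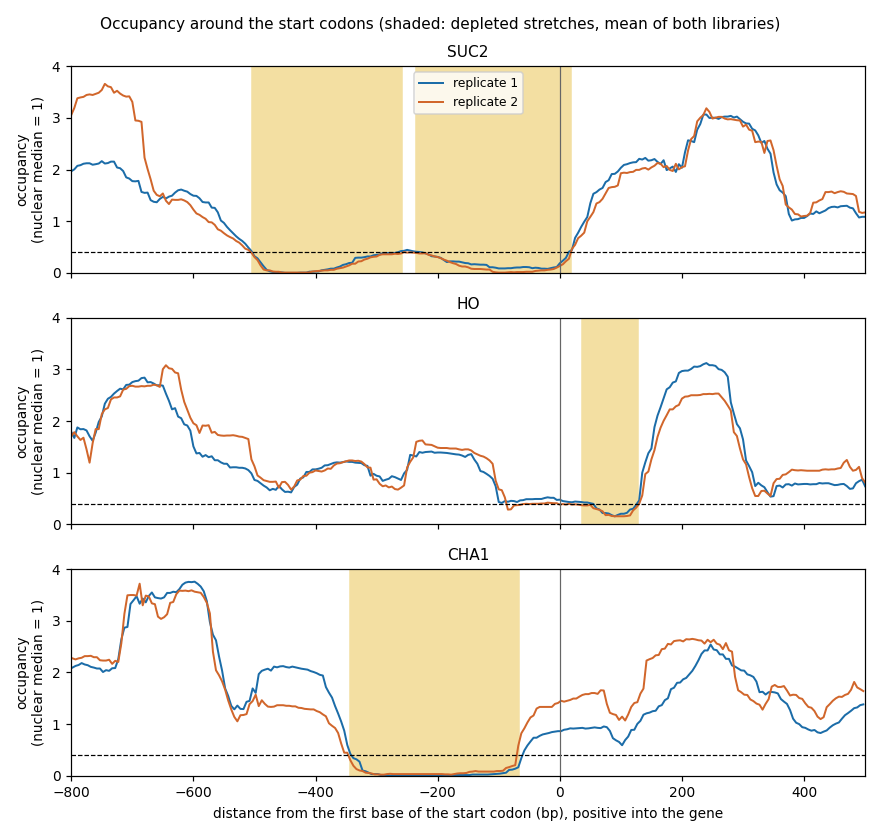
Occupancy (vertical axis, nuclear median = 1) by distance from the start codon (horizontal axis, bp, vertical line at the first coding base) for SUC2, HO and CHA1 in both libraries, with the limit of 0.4 as a dashed line and depleted stretches of the mean of both libraries shaded. SUC2 shows 2 wide stretches that end at 18, HO a narrow one from 36 to 128 inside the gene, and CHA1 a single deep one from -343 to -67.

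Mean occupancy over the HO coding region was 1.19 in replicate 1 and 1.09 in replicate 2 (1.14 ± 0.0706, SD, n = 2), and 46.1% of nuclear windows were lower. Upstream over coding occupancy of HO was 0.912. Both libraries called 9 coding positions, at 222, 421, 583, 751, 983, 1147, 1325, 1489 and 1703 in the mean. The first was much the highest, with 671 read centres in replicate 1 and 464 in replicate 2 and summits 1 bp apart. Its height of 4.33 exceeded that of 89.6% of nuclear positions. The other 8 had heights from 0.815 to 1.65, all below the nuclear median of 1.90. Their read centres ranged from 171 to 398 in replicate 1 and from 110 to 266 in replicate 2.

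Adjacent coding positions of HO lay 184.6 ± 27.1 bp apart in replicate 1 and 185.5 ± 24.2 bp in replicate 2 (mean ± SD over 8 distances), with a median of 173 bp in the mean of both. The distances were the least variable of the 3 coding regions, from 162 to 232 bp. Even so, the density had no clear period of 1 nucleosome: the best r from 120 to 220 bp was -0.07 in replicate 1 and 0.108 in replicate 2. At longer lags r reached 0.459 at 365 bp and 0.413 at 359 bp. A share of 8.57% of nuclear windows had a lower r than the coding region in replicate 1, and 36.9% in replicate 2.

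Downstream of HO, a position at 1901 was followed by a depleted stretch from 1975 to 2066 and then by the second highest position of the 3 windows. This one, at 2151, had 417 read centres in replicate 1 and 561 in replicate 2. Read centres clustered tightly around it, with an SD within 70 bp of 19.2 bp in replicate 1 and 12.9 bp in replicate 2, against nuclear medians of 28.8 and 27.4 bp and 40.7 bp for evenly spread reads. In replicate 2 up to 150 reads of this downstream part began at 1 base of 1 strand, and in replicate 1 up to 54. The gene table names SSB1, which encodes a ribosome-associated Hsp70 chaperone, as the gene that reaches into the window on this side.

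A single wide depleted stretch lay upstream of CHA1, next to the gene, with the lowest mean occupancy of the depleted stretches in the 3 windows. VAC17, the next gene upstream, is read in the opposite direction, so the stretch may belong to the promoters of both genes. The stretch ran from -343 to -67, 277 bp, from -341 to -62 in replicate 1 and from -345 to -72 in replicate 2. It held 5 read centres in replicate 1 and 21 in replicate 2, against 505 and 443 at the nuclear mean. Mean occupancy inside it was 0.0623, against 0.155 and 0.157 in the distal and proximal stretches of SUC2. The lowest occupancy at a single base was 0.0161 at CHA1, against 0.00269 in the distal stretch of SUC2. From -300 to -201 occupancy was 0.0118 in replicate 1 and 0.0313 in replicate 2, and from -200 to -101 it was 0.0192 and 0.0602. Of nuclear depleted stretches, 78.9% were narrower. Like the proximal stretch of SUC2 and unlike the distal one, it held no called position, and its width was 264 bp with a limit of 0.25 and 288 bp with a limit of 0.6.

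The positions on either side of this stretch were placed more sharply than the nuclear median but differed in level between the libraries. The upstream one lay at -432, called at -433 and -432, with 462 read centres in replicate 1 and 250 in replicate 2, an occupancy of 2.10 and 1.34 and an SD of read centres within 70 bp of 24.1 and 22.7 bp. The other one lay at 12, at the start codon within the 20 bp tolerance of the edges, and was called at 14 and 10. It had 198 and 270 read centres, an occupancy of 0.900 and 1.45 and an SD of 23.0 and 22.5 bp. The nuclear medians of this SD were 28.8 bp in replicate 1 and 27.4 bp in replicate 2. The log2 ratio of replicate 2 over replicate 1 was -0.64 at -432 and 0.69 at 12, and the upstream flank was the higher one in replicate 1 but the lower one in replicate 2. The middle 90% of nuclear positions had log2 ratios from -0.71 to 0.65, so the upstream flank lay just inside this range and the start codon flank just outside it. The flanks were 444 bp apart, and 95.9% of nuclear distances between adjacent positions were shorter.

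The CHA1 upstream part held 7 positions in all, and its occupancy was uneven. From -1800 to -1701 occupancy was 0.312 in replicate 1 and 0.265 in replicate 2, and from -700 to -601 it was 3.52 and 3.41. Positions at -1869, -1673, -1449, -1278, -912, -634 and -432 were called in both libraries with offsets of at most 5 bp, the closest match of any upstream part here. The position at -634 was the highest of all 54, with 782 read centres in replicate 1 and 622 in replicate 2 and a height of 5.18, above 94.0% of nuclear positions. A second summit at -760, with a height of 3.10 in replicate 1 and 3.18 in replicate 2, lay 126 bp from it and was left uncalled by the exclusion zone, so that the distance of 278 bp from -912 to -634 is not an empty one. In all 359 of 2000 upstream bases (17.9%) were depleted, 280 in replicate 1 and 396 in replicate 2, the same share as the 17.9% of nuclear bases. The bases outside the main stretch came from a stretch of 82 bp from -1794 to -1713, which was called in replicate 2 but not in replicate 1. Mean upstream occupancy was 1.23 and 1.27 (1.25 ± 0.0247, SD, n = 2), and 57.1% of nuclear windows were lower. The gene table names VAC17, which is read in the opposite direction, as the next gene upstream, and part of MRC1 also falls within these 2 kb. Some of these positions may therefore lie inside VAC17 or MRC1, and which ones do was not analysed here.

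The coding region of CHA1 had the lowest correlation between the libraries of the 9 parts. Mean occupancy was 1.31 in replicate 1 and 1.57 in replicate 2 (1.44 ± 0.182, SD, n = 2), and the density of the libraries correlated with r = 0.768, against 0.965 in the coding region of SUC2 and 0.913 in that of HO. Each library called 5 positions, at 14, 297, 567, 737 and 884 in replicate 1 and at 10, 207, 417, 569 and 877 in replicate 2. Only 3 of these pairs lay near each other. At 204, where the mean of both libraries had a position, replicate 1 had 410 read centres and replicate 2 had 486. In replicate 1 they were spread more evenly, with an SD of 37.0 bp within 70 bp, against 31.7 bp in replicate 2. Occupancy was higher in replicate 2 at 5 of 5 coding positions, with log2 ratios from 0.05 to 0.69, against a nuclear median of 0.02. The positions at 204 and 420 had a call near them in replicate 2 only, so their direction was favoured by how they were found.

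Adjacent positions of the CHA1 coding region lay 217.5 ± 69 bp apart in replicate 1 and 216.8 ± 65.7 bp in replicate 2 (mean ± SD over 4 distances). The median was 204 bp in the mean of both libraries, but 305 bp when 1 read was kept per position and strand, and 158 bp when the exclusion zone was 120 bp, so a spacing cannot be given for this short array. At lags from 120 to 220 bp the best r was -0.34 in replicate 1, at 120 bp, and 0.03 in replicate 2, at 220 bp. Both lags are ends of the range searched. At longer lags it reached 0.595 at 304 bp and 0.569 at 329 bp. Beyond the stop codon, positions at 1130 and 1528 were low, with heights of 0.508 and 0.319, and that at 1340 had 299 read centres in replicate 1 and 318 in replicate 2. Mean occupancy of the downstream part was 0.738 ± 0.0133 (SD, n = 2). In the mean of both libraries a depleted stretch of 114 bp ran from 1497 to 1610, partly beyond the window. Replicate 2 had stretches from 1086 to 1165 and from 1449 to 1628, and none was called in replicate 1. The next gene, HMLALPHA1 of the silent mating-type cassette HML, lies beyond the window.

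**Figure D3:**
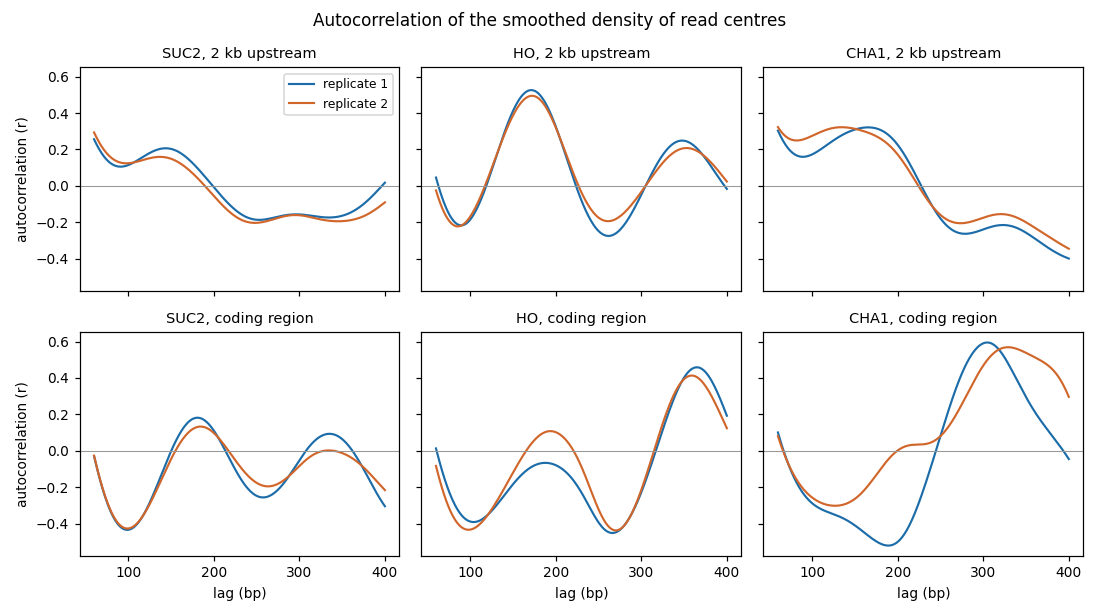
Autocorrelation of the smoothed density of read centres (vertical axis, r) by lag (horizontal axis, bp) in the 2 kb upstream and in the coding region of SUC2, HO and CHA1, with 1 line for each library. The upstream part of HO peaks at 171 and 172 bp and again at 348 and 353 bp in both libraries, the coding region of SUC2 has a low peak near 181 to 185 bp, and the coding region of CHA1 peaks only at 304 and 329 bp.

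Set side by side, the promoters differed in how far the depleted bases reached towards the gene. Gene edges carry a tolerance of 20 bp, so an end or position within 20 bp of an edge may lie on either side of it. At SUC2 the depleted bases reached the start codon and ended at 18. At HO they lay far upstream and again from 36 to 128, inside the gene, but this last stretch depended on the library and the settings. It reached the start codon in replicate 2 (-1 to 130). It crossed the start codon with a move of 73 bp (-33 to 105) and with a limit of 0.6 (-100 to 132). It was not called in replicate 1, with 1 read kept per position and strand, with a limit of 0.25 or with occupancy set against the median of its own chromosome. At CHA1 they ended at -67, and a position was centred at 12. The first coding position with a height above 1 lay at 114 in SUC2, at 222 in HO and at 12 in CHA1. The 2 kb upstream hold more than promoter at SUC2 and CHA1. Part of YIL163C falls within them at SUC2, and VAC17 and part of MRC1 at CHA1, while GCS1 does not reach in at HO. Depleted upstream bases, counted over all of the 2 kb, numbered 601, 193 and 359 at SUC2, HO and CHA1. The order of the 3 genes was the same in each library alone, with 582, 197 and 280 bases in replicate 1 and 707, 170 and 396 in replicate 2. With 1 gene in each case and 2 libraries of 1 condition, these differences have no test.

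The libraries placed most positions alike. Of the positions of replicate 1, 13 of 18 at SUC2, 20 of 22 at HO and 12 of 15 at CHA1 had one of replicate 2 within 20 bp, against 80.4% over the nuclear genome. Of the positions of replicate 2, 13 of 18, 20 of 21 and 12 of 14 had one of replicate 1, against 82.0%. Of the 54 positions of the mean of both libraries, 49 had a call within 73 bp in each library, with a median offset of 5 bp, and 38 an offset of at most 10 bp. Of these 49, 4 differed by more than 20 bp, of which 3 were at SUC2, at -583, 483 and 1305, and 1 was at HO, at 751. Over the nuclear genome, replicate 1 calls with a replicate 2 call within 73 bp lay a median of 4 bp from it. The upper quartile of these nuclear distances was 9 bp and the last decile 17 bp. The heights of 34 of the 54 lay below the nuclear median of 1.90.

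Occupancy at the positions was likewise close in the libraries. It was higher in replicate 2 at 23 of 54 positions and lower at 31, with log2 ratios from -1.20 to 0.71. At 5 positions, 9.26% of them, the ratio lay outside the middle 90% of nuclear positions. These were -758 and 2072 at SUC2, 2151 at HO, and 12 and 1528 at CHA1. The distance between the highest plus-strand pile-up before a position and the highest minus-strand one after it was also compared. It is not a measured fragment length: at 1147 of HO it was 39 bp in replicate 1 and 112 bp in replicate 2. The distance was shorter in replicate 2 at 30 positions, longer at 21 and equal at 3. This count was not made over the nuclear genome. The median distance was 89 bp in replicate 1 and 77.5 bp in replicate 2, against nuclear medians of 91 and 82 bp.

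**Figure D4:**
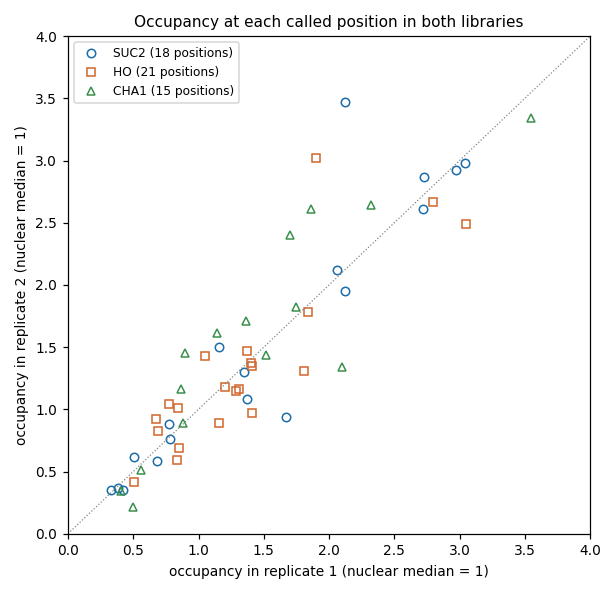
Occupancy at each of the 54 called positions in replicate 1 (horizontal axis) and replicate 2 (vertical axis), as multiples of the nuclear median, with the dotted line at equal values and a symbol for each gene. Most points lie along the line, from low ones such as SUC2 at 1856, with 0.327 and 0.349, to the highest position of CHA1, with 3.55 and 3.34, and the point farthest above it is SUC2 at -758, with 2.12 and 3.47.

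How far read ends are moved decides the exact positions. With a move of 73 bp, which suits fragments of 147 bp and here carried the ends of both strands past each other, a summit lay within 20 bp of only 3 of 18 positions at SUC2, 8 of 21 at HO and 5 of 15 at CHA1. Under that move the main depleted stretches still lay from -515 to 20 at SUC2 and from -343 to -42 at CHA1. At HO the stretch from -1819 to -1723 was lost, that from -1378 to -1283 lay from -1384 to -1268, and that from 36 to 128 lay from -33 to 105. With a smoothing SD of 10 bp, an exclusion zone of 120 bp or no minimum height, a summit lay within 20 bp of all 54 positions. Dropping the minimum height only adds summits, so it could not lose a position. Other settings lost some. With a smoothing SD of 30 bp, 15 of 18 were found at SUC2, 21 of 21 at HO and 12 of 15 at CHA1. With 1 read kept per position and strand the counts were 14, 20 and 13. With a minimum height of 0.5 they were 15, 21 and 14.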

How the data were processed

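In both MNase-seq libraries the authors had aligned single-end reads and deposited 1 line per read with chromosome, start, end and strand. Every line spans 150 bp, so reads had been lengthened; the values are positions, with no normalized unit. The submitters' processing notes name sacCer2. The aligner and the treatment of duplicate reads are not given in the sources used here, and all reads were kept. The 5′ end of each read was moved to the strand midpoint, smoothed with a Gaussian of SD 20 bp, and summits of at least 0.25 times the nuclear mean were taken in order of height, each barring others within 147 bp (the exclusion zone). Lags, windows and limits are those given with the results. At the high ends of the chromosomes the outermost ends of the strands lay a median of 32 bp apart, about 1 read, so minus-strand ends were not displaced. Calling was tested on simulated data. Scripts ran in Python 3.11.15 with scipy 1.17.1, numpy 2.4.6, numba 0.67.0, matplotlib 3.10.9 and pandas 2.3.3. Libraries formed 1 group, numbered in accession order. No test was run, and 18 alternatives were tried. Genes with values are the 3 members; neighbours were named from the R64 gene table, whose coordinates served to compare the members' edges and to find which neighbours reach into the windows, and none is printed for a neighbour. Members, settings and comparisons were chosen with earlier results of these data known. Promoter sequence and motifs were not analysed here.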

Additional observations from a re-analysis of the deposited data

How the results depend on the processing

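The counts of called positions stayed within 1.5 times their value under every alternative run. The exclusion zone limits how many summits fit in a window, so a stable count does not mean stable positions. With a move of 73 bp SUC2 had 15 positions, but a summit lay within 20 bp of only 3 of its 18. Depleted upstream bases of SUC2 (601) were 338 with 1 read kept per position and strand, and 351 and 1050 with limits of 0.25 and 0.6. They were 712 with stretches from 40 bp, and 582 to 707 without a replicate. Those of HO (193) were 150 with a move of 73 bp, 98 with 1 read kept per position and strand, and 0 and 351 with limits of 0.25 and 0.6. They were 253 with occupancy counted over the strand distance, and 170 to 197 without a replicate. Those of CHA1 (359) were 302 with a move of 73 bp, 277 with 1 read kept per position and strand, and 264 and 488 with limits of 0.25 and 0.6. They were 411 with occupancy counted over the strand distance, and 280 to 396 without a replicate. Median coding spacing of SUC2 (178 bp) was 198 with a move of 73 bp and 183 with 1 read kept per position and strand. It was 189 with a smoothing SD of 10 bp, and 181 to 185 without a replicate. That of HO (173 bp) was 211 with a move of 73 bp and 187.5 with 1 read kept per position and strand. It was 176 and 174 with smoothing SDs of 10 and 30 bp, 178 with edges 20 bp higher, and 178 to 179 without a replicate. That of CHA1 (204 bp) was 305 with 1 read kept per position and strand, and 180.5 with a smoothing SD of 30 bp. It was 158 with an exclusion zone of 120 bp, 216 with edges 20 bp lower, and 203.5 to 220 without a replicate. A higher limit takes in more bases and a lower limit fewer by construction; the cause of the other shifts was not tested. No paired analysis was possible because there is 1 group. The 5 to 9 coding positions and the few reads in depleted stretches limit the precision of spacings and depths, and counts of reads are not counts of independent molecules.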
